A study of Homo sapiens with 24 samples.

Results

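A set of 55 genes from the short arm of chromosome 19 was followed through RNA sequencing of J82 and RT-112, established cell lines of human bladder cancer. The genes were chosen by position and by their J82 expression values: they were taken from the 35993 gene symbols of the deposited table because they lie between PLPP2 and ZNF90 and because this stretch had shifted together between the J82 groups. The J82 values therefore chose the genes and are given as a description, with no test, while the RT-112 values were not used in the choice. All 55 symbols matched a RefSeq gene inside the stretch, which holds 713 symbols of the table, 564 of them protein coding. Of the 55 genes, 54 passed the filter on low counts in each line. The remaining gene, GNG7, a G protein gamma subunit, had 0 counts in 22 of the 24 libraries, with 4 and 2 counts in RT-112 CD44 High replicates 2 and 3.

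Each line was sequenced as parental cells, labelled as the control, and as established sublines that the labels call CD44 High, CD44 Low or CD44v6 (the last labelled high in CD44v6), with 3 biological replicates of each, 24 libraries in all. CD44 is a cell-surface receptor for hyaluronan, and CD44v6 names the splice forms that carry a variant exon, which counts per gene do not separate. The labels do not say how these lines were made or whether each is 1 clone. Each group is thus known by its label and its CD44 level alone. P-values measure the spread among these replicates of each line. CD44 averaged 448 CPM (counts scaled to library size; SD 46.9, n = 3) in J82 parental cells, against 280 (SD 28.7) for CD44 Low, 734 (SD 32.6) for CD44 High and 806 (SD 240) for CD44v6. The RT-112 means in the same order were 319 (SD 27.3), 138 (SD 18.8), 423 (SD 77.1) and 437 (SD 64.8) CPM.

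Library totals ran from 16752825 to 24419670 counts, and small structural RNAs (the 7SL and 7SK genes) took 4.16% to 7.76% of them. Of 18 urothelial markers, 17 had a median of at least 1 CPM in RT-112 and 9 in J82. In J82 the markers KRT5, KRT13, KRT20, UPK2 and UPK3A were at 0 in all libraries. A summed mesenchymal marker level was higher in J82 CD44 Low (1342 to 1613 CPM) than in J82 parental (976 to 1028 CPM), CD44 High (1043 to 1124 CPM) and CD44v6 (982 to 1130 CPM). Over the J82 libraries its highest markers were COL3A1 (392 to 1243 CPM) and VIM (213 to 637 CPM). The top COL3A1 level exceeded every sum outside CD44 Low, so it was a CD44 Low library. The mesenchymal sum does not show that each of its markers rose. The urothelial sum was lower in J82 CD44 Low (6667 to 7906 CPM) than in parental (8199 to 9324 CPM), CD44 High (9036 to 10719.8 CPM) and CD44v6 (9073 to 9619 CPM). A leukocyte sum of 77.7 to 125 CPM in CD44 Low lay below parental (146 to 175 CPM) and CD44 High (143 to 221 CPM) and overlapped CD44v6 (105 to 189 CPM). Of its 5 markers, 1 reached a median of 1 CPM in J82, CD68. The part of these markers in the differences described here was not tested. In bulk RNA, fewer cells of a type and less RNA per cell cannot be told apart.

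Chromosome 19 is the most gene-dense human chromosome, and its short arm is rich in GC and in genes that nearly every cell uses. The set reflects this: it holds chromatin enzymes, splicing and decay factors, translation factors, kinases, mitochondrial enzymes and coat proteins. DNA copy number was not measured in these files, so a level per gene is RNA alone.

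Promoters are shown for 5 genes that are described below. They were picked for their J82 difference or as neighbours, and not as typical of the set. SMARCA4 is among the 3 genes with the lowest CD44 High minus CD44 Low difference in J82, CNN2 and HOMER3 are the pair with a difference above 0, and SAFB and SAFB2 are head-to-head neighbours. Each sequence is the 250 bases before the gene's start in RefSeq on GRCh38.p14, written 5′ to 3′ on the gene's own strand. Capitals mark the GC box, GGGCGG or its reverse complement CCGCCC. The windows are chr19:10960780-10961029 (plus strand) for SMARCA4, chr19:1026358-1026607 (plus) for CNN2, chr19:18939636-18939885 (minus) for HOMER3, chr19:5622833-5623082 (plus) for SAFB and chr19:5622777-5623026 (minus) for SAFB2. The counts rest on another build, GRCh37, per the submitters' processing notes.
SMARCA4: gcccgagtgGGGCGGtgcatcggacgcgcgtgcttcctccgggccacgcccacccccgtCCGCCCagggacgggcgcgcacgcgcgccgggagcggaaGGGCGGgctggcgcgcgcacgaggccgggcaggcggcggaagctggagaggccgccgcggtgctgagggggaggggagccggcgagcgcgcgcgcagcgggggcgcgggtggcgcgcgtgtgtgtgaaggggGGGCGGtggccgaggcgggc
CNN2: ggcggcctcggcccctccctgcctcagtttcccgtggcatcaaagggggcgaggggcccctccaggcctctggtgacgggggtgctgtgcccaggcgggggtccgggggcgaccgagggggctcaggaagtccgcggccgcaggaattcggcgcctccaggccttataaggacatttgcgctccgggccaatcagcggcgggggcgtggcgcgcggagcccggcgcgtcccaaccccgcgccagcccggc
HOMER3: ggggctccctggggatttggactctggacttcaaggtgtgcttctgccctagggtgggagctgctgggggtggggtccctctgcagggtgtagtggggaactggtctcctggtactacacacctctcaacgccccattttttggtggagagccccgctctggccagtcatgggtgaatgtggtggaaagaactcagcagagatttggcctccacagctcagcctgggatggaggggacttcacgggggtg
SAFB: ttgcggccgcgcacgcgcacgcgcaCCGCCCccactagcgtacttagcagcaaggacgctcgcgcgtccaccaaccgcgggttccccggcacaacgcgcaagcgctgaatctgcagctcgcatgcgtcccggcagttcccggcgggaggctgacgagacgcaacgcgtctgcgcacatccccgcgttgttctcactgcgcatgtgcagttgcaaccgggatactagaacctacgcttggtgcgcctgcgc
SAFB2: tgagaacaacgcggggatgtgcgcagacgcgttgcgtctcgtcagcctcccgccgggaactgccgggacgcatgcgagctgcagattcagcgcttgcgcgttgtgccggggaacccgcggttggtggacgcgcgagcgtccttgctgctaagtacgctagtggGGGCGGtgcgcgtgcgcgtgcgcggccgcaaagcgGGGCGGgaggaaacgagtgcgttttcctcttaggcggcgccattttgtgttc

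The SMARCA4 window holds 4 GC boxes, the CNN2 and HOMER3 windows hold 0, and the SAFB and SAFB2 windows overlap on opposite strands. Other windows of the set with 0 GC boxes, such as those of TYK2, SUGP2 and DNMT1, belong to genes below 0 in J82 CD44 High against CD44 Low. Whether GC boxes go with the differences was not tested. A promoter was found for 52 of the 55 genes, and 41 of these 52 (78.8%) hold a GC box on either strand. The share was 42.3% of all 27305 promoters of this length and 72.6% of the 463 protein-coding promoters of the stretch. The motif CCAAT was in 32.7% of the set's promoters against 33.0% of all, and TATAAA in 5.77% against 11.1%, both strands searched. Median GC content was 68.4% in the set's promoters and 58.0% in all promoters. A match is a description of these letters and not a binding site.

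In J82 the set lay lower in CD44 High and CD44v6 than in parental and CD44 Low cells. The median over the 54 genes was computed in each library as log2 CPM minus the mean of the parental libraries. It was 0.05, -0.02 and -0.04 in the parental libraries and 0.04, 0.10 and 0.09 in CD44 Low. It was -0.24, -0.28 and -0.22 in CD44 High and -0.16, -0.11 and -0.23 in CD44v6. The 6 libraries of CD44 High and CD44v6 thus lay below the 6 others with no overlap. In RT-112 the same median was 0.02, 0.00 and -0.04 in parental, -0.03, 0.02 and -0.12 in CD44 Low, 0.06, 0.15 and -0.06 in CD44 High and -0.02, 0.01 and 0.07 in CD44v6. There the groups overlapped.

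**Figure D1:**
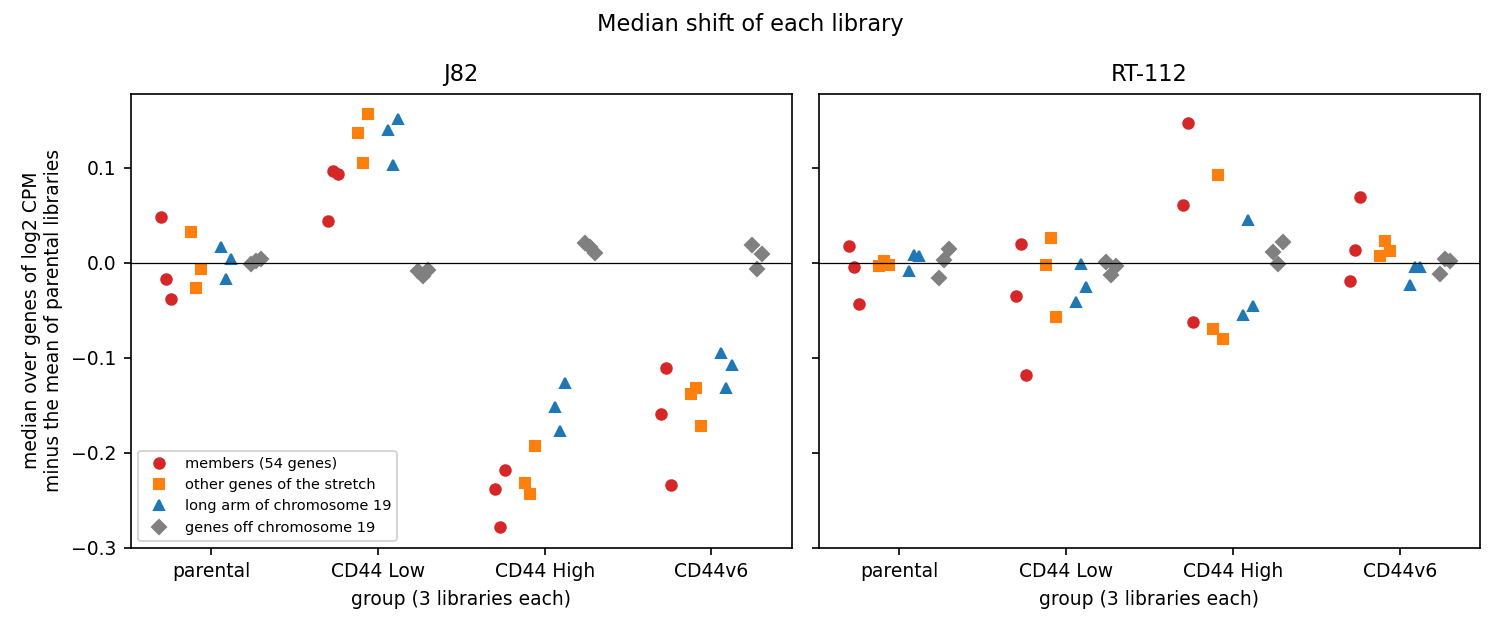
Median over genes of log2 CPM minus the mean of the parental libraries, for each of the 24 libraries by group, in J82 (left) and RT-112 (right). Each point is 1 library, and colours mark the 54 genes of the set, the other genes of the stretch, the long arm of chromosome 19 and all genes off that chromosome. In J82 the CD44 High libraries of the set sit between -0.28 and -0.22, while genes off chromosome 19 stay between -0.01 and 0.02 in every J82 group.

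Between CD44 High and CD44 Low in J82, 52 of the 54 genes had a difference below 0, with a median of -0.33 on the log2 scale, a fold of 0.797. The middle of the set ran from -0.49 to -0.16 (quartiles), 13 genes lay below -0.5 and 2 below -1. All 3 libraries of CD44 High lay below all 3 of CD44 Low for 32 of the 54 genes (59.3%), against 17% of all 15951 genes tested. In the other direction the share of all genes was 17.9%, and no gene of the set showed it. Against parental cells, CD44 High gave a median of -0.24 with 52 of 54 genes below 0. There 31 genes (57.4%) had no overlap in the lower direction against 14.6% of all genes (0 in the higher, against 14.9%). CD44v6 against parental gave -0.18 with 45 of 54 below 0, and 21 genes (38.9%) had no overlap in the lower direction against 13.9% (0 in the higher, against 13.4%). CD44v6 against CD44 Low gave -0.23 with 48 below 0, and 22 genes (40.7%) had no overlap in the lower direction against 10.6% (0 in the higher, against 12.7%).

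CD44 Low lay slightly above parental J82 cells in this set, with a median of 0.06 and 35 of 54 genes above 0. Here 17 genes (31.5%) had no overlap in the higher direction, against 16.1% of all genes. In the lower direction it was 4 genes (7.41%), against 17%. CD44v6 lay slightly above CD44 High, with a median of 0.09 and 40 of 54 genes above 0. There 5 genes (9.26%) had no overlap in the higher direction against 5.82% of all genes, and 0 in the lower direction against 6.24%. Since these comparisons share libraries, they are not independent of each other.

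**Figure D2:**
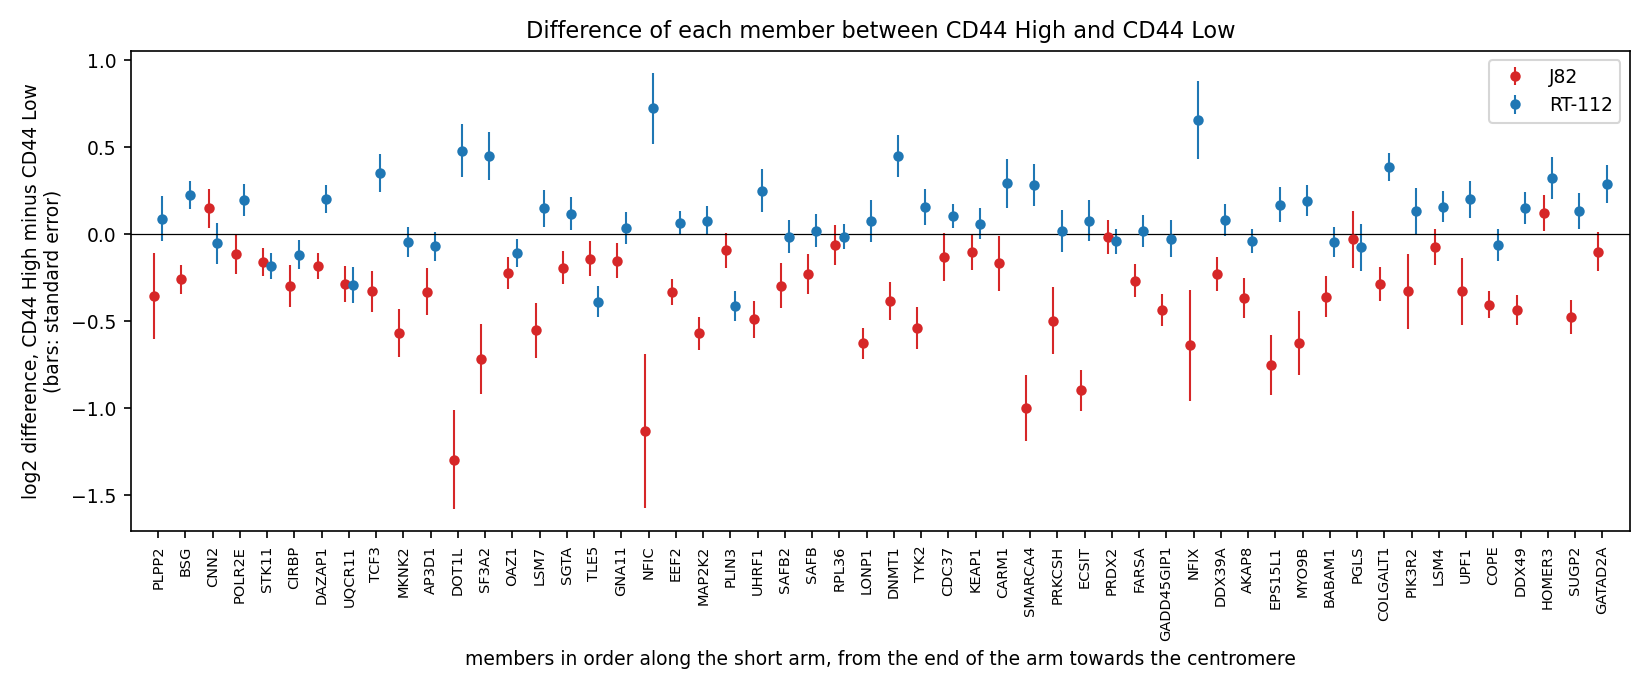
Log2 difference between CD44 High and CD44 Low for each of the 54 genes, in order along the short arm from its end towards the centromere, with standard errors as bars. In J82 (red) 52 genes lie below 0, from -1.29 for DOT1L to 0.15 for CNN2, whereas in RT-112 (blue) 37 lie above 0, from -0.41 for PLIN3 to 0.72 for NFIC.

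The shift was not particular to these genes within chromosome 19. In J82 CD44 High against CD44 Low, the other 367 tested genes of the stretch had a median of -0.38, the 551 tested genes of the long arm -0.29, and the 14676 tested genes off chromosome 19 a median of 0.01. Against parental cells the same sets gave -0.22, -0.15 and 0.01 for CD44 High and -0.13, -0.10 and 0.02 for CD44v6. In CD44 Low against parental cells the rest of the stretch (0.15) and the long arm (0.15) lay further above 0 than the set did (0.06).

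Among 41 chromosome arms with at least 50 tested genes, the short arm of chromosome 19 had the lowest J82 median in CD44 High against CD44 Low (-0.36) and the long arm the next (-0.29). The next lowest arm was the long arm of chromosome 6 at -0.19, and the highest was the long arm of chromosome 3 at 0.14. Both arms of chromosome 19 were also the lowest in CD44 High against parental (-0.23 and -0.15) and the highest in CD44 Low against parental (0.12 and 0.15). In CD44v6 against parental the short arm was the lowest (-0.14) and the long arm ranked 3 of 41 (-0.10). In the RT-112 comparison of CD44 High with CD44 Low the arms had medians of 0.02 and -0.02, ranks 30 and 15 of 41.

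**Figure D3:**
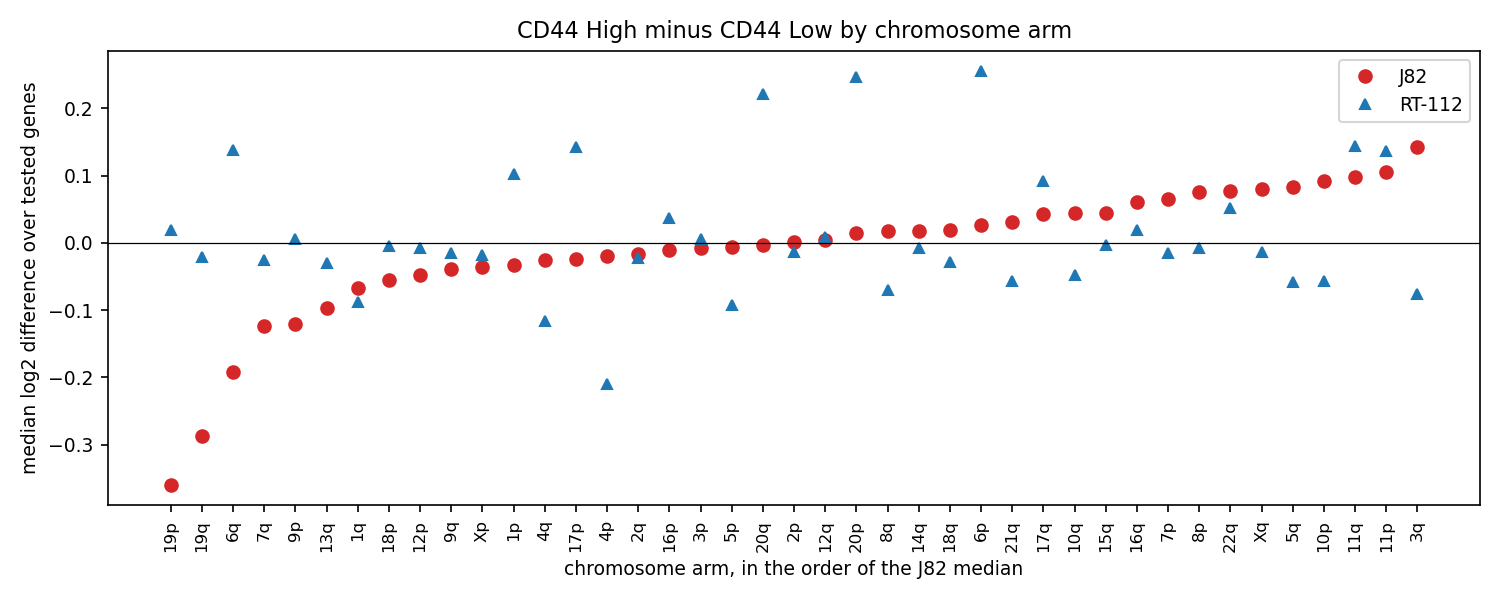
Median log2 difference of CD44 High minus CD44 Low over the tested genes of each chromosome arm, ordered by the J82 value. Circles are J82 and triangles RT-112, and no error is drawn. The arms of chromosome 19 stand at -0.36 and -0.29 in J82 and at 0.02 and -0.02 in RT-112.

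Along the chromosome, consecutive groups of about 50 genes gave J82 medians for CD44 High against CD44 Low that were all below 0. The 9 groups of the short arm ran from -0.44 to -0.25 and the 11 of the long arm from -0.59 to -0.10. The value nearest 0 was that of the group at the end of the long arm, -0.10, where CD44 High against parental was 0.05. At the ends of the stretch, PLPP2 (-0.35, SE 0.25) and MIER2 (-0.63, SE 0.27) lay inside and LINC01002 (-0.12, SE 0.57) outside at the distal end. At the proximal end ZNF90 (-0.75, SE 0.18) and ZNF682 (-0.35, SE 0.23) lay inside and RPS16P10 (-1.02, SE 0.56) outside. Genes inside and outside either end did not differ beyond these errors, and the difference was not tested.

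**Figure D4:**
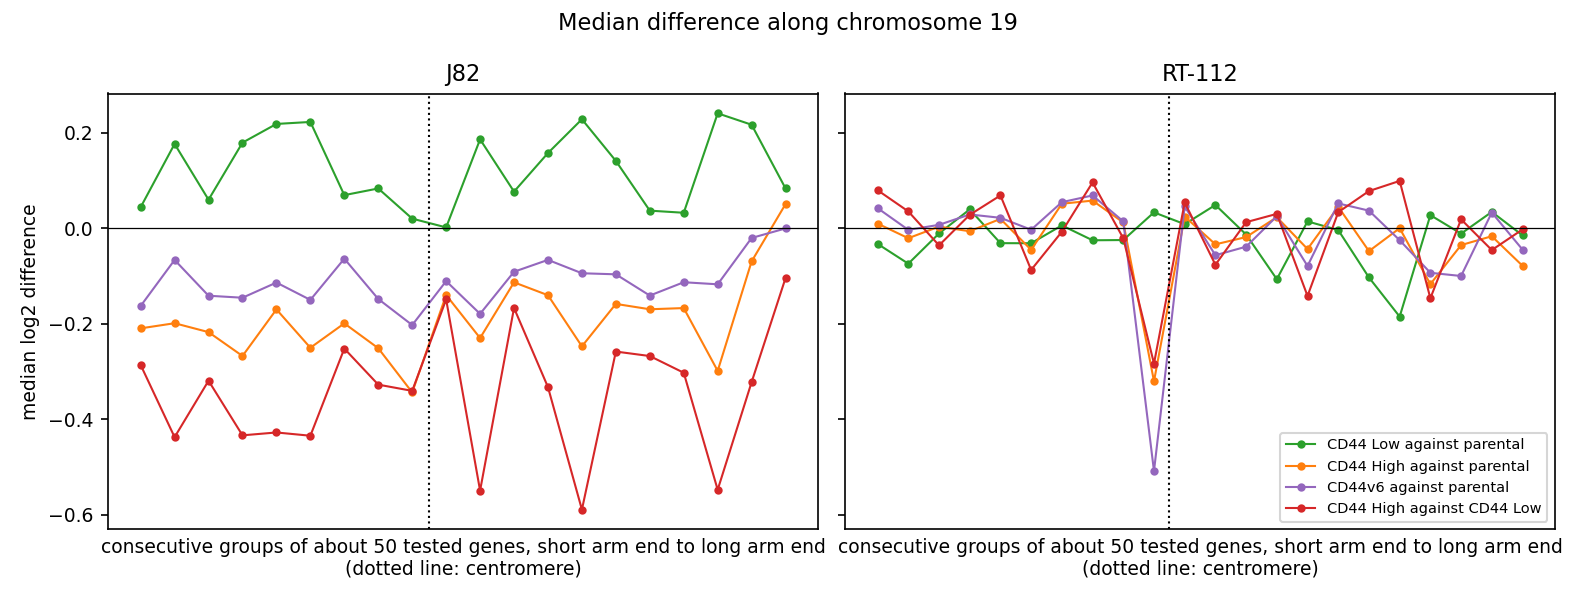
Median log2 difference in consecutive groups of about 50 tested genes along chromosome 19, from the end of the short arm to the end of the long arm, with a dotted line at the centromere, for 4 comparisons in each line. In J82 CD44 High against CD44 Low lies below 0 in all 20 groups. In RT-112 the lines run near 0, except in the last short-arm group of 22 genes, which holds no gene of the set (-0.28 for CD44 High against CD44 Low and -0.51 for CD44v6 against parental).

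The 14 chromatin and transcription genes were all below 0 in J82 CD44 High against CD44 Low, with a median of -0.35. DOT1L, a histone methyltransferase, had 51.1, 45.5 and 39.6 CPM for CD44 Low, 19, 15.6 and 21 CPM in CD44 High, 31.8, 24.1 and 30.0 CPM in parental and 21.4, 51.5 and 21 CPM in CD44v6. Its CD44 High libraries lay below all CD44 Low and parental libraries, and its difference of -1.29 (SE 0.29) was the lowest of the set. The CD44v6 libraries split, with replicate 2 at the level of CD44 Low.

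SMARCA4, the ATPase of SWI/SNF chromatin remodelling complexes whose promoter is printed above, had 436, 391 and 357 CPM in CD44 Low and 172, 179 and 242 CPM in CD44 High. Parental cells had 305, 261 and 271 CPM and CD44v6 had 225, 357 and 205 CPM. CD44 High lay below CD44 Low and below parental in every library, with a difference of -1.0 (SE 0.19) from CD44 Low. NFIC, a transcription factor of the nuclear factor I family, had 79.6, 52.8 and 39.0 CPM for CD44 Low, 25.2, 22.1 and 31.1 CPM in CD44 High, 40.9, 20.1 and 27.8 CPM in parental and 32.4, 94.1 and 22.9 CPM in CD44v6. NFIC spread widely within groups, and its difference of -1.13 carried an SE of 0.44. NFIX, of the same family, gave -0.64 (SE 0.32).

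The pair that copies and reads DNA methylation at replication lay low together. DNMT1, the maintenance DNA methyltransferase, had 354, 378 and 360 CPM for CD44 Low, 408, 367 and 367 CPM in parental, 247, 277 and 314 CPM for CD44 High and 294, 374 and 305 CPM in CD44v6. UHRF1, which recruits it to hemimethylated DNA, had 117, 119 and 108 CPM for CD44 Low, 122, 111 and 104 CPM in parental, 77.0, 86.0 and 82.8 CPM for CD44 High and 113, 126 and 95.5 CPM in CD44v6. For both, CD44 High lay below parental and CD44 Low with no overlap, and CD44v6 lay between or among them. Their differences from CD44 Low were -0.38 (SE 0.11) and -0.49 (SE 0.10), and from parental -0.45 and -0.46.

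The other chromatin and transcription genes lay closer to 0. The head-to-head neighbours SAFB and SAFB2, nuclear matrix proteins, gave -0.23 (SE 0.12) and -0.30 (SE 0.13), and the E protein TCF3 gave -0.33 (SE 0.12). AKAP8, a nuclear anchoring protein, gave -0.37 (SE 0.12), CARM1, an arginine methyltransferase, -0.17 (SE 0.16), and TLE5, a Groucho-type corepressor, -0.14 (SE 0.10). The RNA polymerase II subunit POLR2E gave -0.12 (SE 0.11), and GATAD2A, of the NuRD complex, was the nearest to 0 in this group at -0.10 (SE 0.11). POLR2E was at 41.6, 43.5 and 42.4 CPM in CD44v6, below all parental libraries (62.5, 59.9 and 52.6 CPM).

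All 9 RNA processing and decay genes were below 0, with a median of -0.33. SF3A2, a subunit of the splicing complex that binds the branch point, had 35.2, 33.9 and 31.4 CPM for CD44 Low, 33.2, 20.3 and 27.2 CPM in parental, 18, 18.5 and 24.8 CPM for CD44 High and 24.2, 35 and 22.7 CPM in CD44v6. CD44 High was below CD44 Low in every library but overlapped parental, and the difference from CD44 Low was -0.72 (SE 0.20). The Sm-like proteins LSM7 (-0.55, SE 0.16) and LSM4 (-0.07, SE 0.10) sit in the same rings and had unlike values. LSM4 was already lower in CD44 Low (70.0, 77.0 and 79.6 CPM) than in parental cells (93.2, 95.5 and 87.9 CPM), and against parental CD44 High gave -0.36.

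The splicing-related SUGP2 gave -0.48 (SE 0.10) and the RNA helicase DDX49 -0.43 (SE 0.09). UPF1, the helicase of nonsense-mediated decay, gave -0.33 (SE 0.19), the cold-inducible RNA-binding protein CIRBP -0.30 (SE 0.12), DDX39A, an mRNA export helicase, -0.23 (SE 0.10), and DAZAP1, an RNA-binding protein, -0.18 (SE 0.08).

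The 7 translation and protein folding genes were below 0, with a median of -0.27. EEF2, the translocation factor of the ribosome, had 1381, 1486 and 1415 CPM for CD44 Low, 1302, 1316 and 1235 CPM in parental, 1130, 1178 and 1094 CPM for CD44 High and 1224, 1315 and 1125 CPM in CD44v6. CD44 High lay below both of the first groups in every library, by -0.33 (SE 0.08) from CD44 Low. PRKCSH, a glucosidase II subunit of the endoplasmic reticulum, gave -0.50 (SE 0.19), the lowest of these genes. RPL36, a ribosomal protein, gave -0.06 (SE 0.12), the nearest to 0, and its sign turned without CD44 Low replicate 2 (0.08). GADD45GIP1, a mitochondrial ribosomal protein, gave -0.43 (SE 0.09), FARSA, a phenylalanyl-tRNA synthetase subunit, -0.27 (SE 0.09), SGTA, a co-chaperone, -0.19 (SE 0.10), and CDC37, the kinase co-chaperone of HSP90, -0.13 (SE 0.14).

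Of the 10 tested signalling genes, 9 were below 0, with a median of -0.34. ECSIT, an adaptor of Toll-like receptor signalling that also serves mitochondrial complex assembly, had 24.9, 29.5 and 25.8 CPM for CD44 Low, 20.4, 21.9 and 18.8 CPM in parental, 15, 12.8 and 15.3 CPM for CD44 High and 15.2, 17.7 and 15.7 CPM in CD44v6. CD44 High and CD44v6 lay below both other groups in every library, and CD44 High differed from CD44 Low by -0.90 (SE 0.12). MAP2K2, the kinase MEK2 of the ERK cascade, had 153, 178 and 148 CPM for CD44 Low, 144, 145 and 130 CPM in parental, 107, 115 and 101 CPM for CD44 High and 125, 127 and 114 CPM in CD44v6. It followed the same order of groups with no overlap between the first 2 and the last 2, at -0.57 (SE 0.09).

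MKNK2, a kinase downstream of ERK, differed from this order. It had 65.6, 50.4 and 46.3 CPM for CD44 Low, 34.8, 31.6 and 36.0 CPM in parental, 36.8, 37.6 and 35 CPM for CD44 High and 40.2, 37.1 and 29.7 CPM in CD44v6. CD44 Low alone stood apart, above the other 3 groups in every library. TYK2, a Janus kinase, gave -0.54 (SE 0.12), BABAM1, of the BRISC and BRCA1-A complexes, -0.36 (SE 0.12), PIK3R2, a phosphoinositide kinase subunit, -0.33 (SE 0.22), the kinase STK11 -0.16 (SE 0.08), the G protein GNA11 -0.15 (SE 0.10) and KEAP1, the sensor that holds NRF2 in check, -0.10 (SE 0.10). HOMER3, a scaffold protein, was above 0 at 0.12 (SE 0.10), with 40.8, 41.7 and 40.9 CPM in CD44 Low inside the range of CD44 High (48.3, 45.4 and 40.5 CPM).

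The 7 genes of metabolism and mitochondria were below 0, with the smallest median of the role groups, -0.22. LONP1, the mitochondrial matrix protease, had 202, 185 and 209 CPM for CD44 Low, 172, 146 and 170 CPM in parental, 123.1, 129 and 134 CPM for CD44 High and 141, 149 and 138 CPM in CD44v6. CD44 High lay below the other 3 groups in every library, by -0.63 (SE 0.09) from CD44 Low. PRDX2, a peroxidase, gave -0.01 (SE 0.10), and its sign turned without CD44 Low replicate 3 (0.07), without CD44 High replicate 1 (0.03) and, at 0.00, under upper-quartile scaling and without small structural RNAs. PRDX2 was lower in CD44 Low (60.8, 62.9 and 72.9 CPM) than in parental cells (83.0, 73.7 and 75.3 CPM), with CD44 High at 61.1, 68.8 and 64.8 CPM. The lipid phosphatase PLPP2 gave -0.35 (SE 0.25), the complex III subunit UQCR11 -0.29 (SE 0.11), the polyamine regulator OAZ1 -0.22 (SE 0.09), the lipid droplet protein PLIN3 -0.09 (SE 0.10) and the pentose phosphate enzyme PGLS -0.03 (SE 0.16).

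Of the 7 genes of membrane traffic, cytoskeleton and surface, 6 were below 0, with a median of -0.33. EPS15L1, an endocytic adaptor, had 20.6, 14 and 18 CPM for CD44 Low, 16.5, 15.3 and 16.4 CPM in parental, 10.2, 8.86 and 12.2 CPM for CD44 High and 12, 15.8 and 12 CPM in CD44v6. CD44 High lay below CD44 Low and parental in every library, by -0.75 (SE 0.17) from CD44 Low. MYO9B, an unconventional myosin, gave -0.62 (SE 0.19) and COPE, a subunit of the COPI vesicle coat, -0.40 (SE 0.08). The adaptor subunit AP3D1 gave -0.33 (SE 0.13), the collagen galactosyltransferase COLGALT1 -0.28 (SE 0.10) and the surface glycoprotein BSG -0.26 (SE 0.08). CNN2, an actin-binding calponin, was the highest of the set at 0.15 (SE 0.11), with 205, 246 and 213 CPM in CD44 Low and 243, 253 and 240 CPM in CD44 High.

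**Figure D5:**
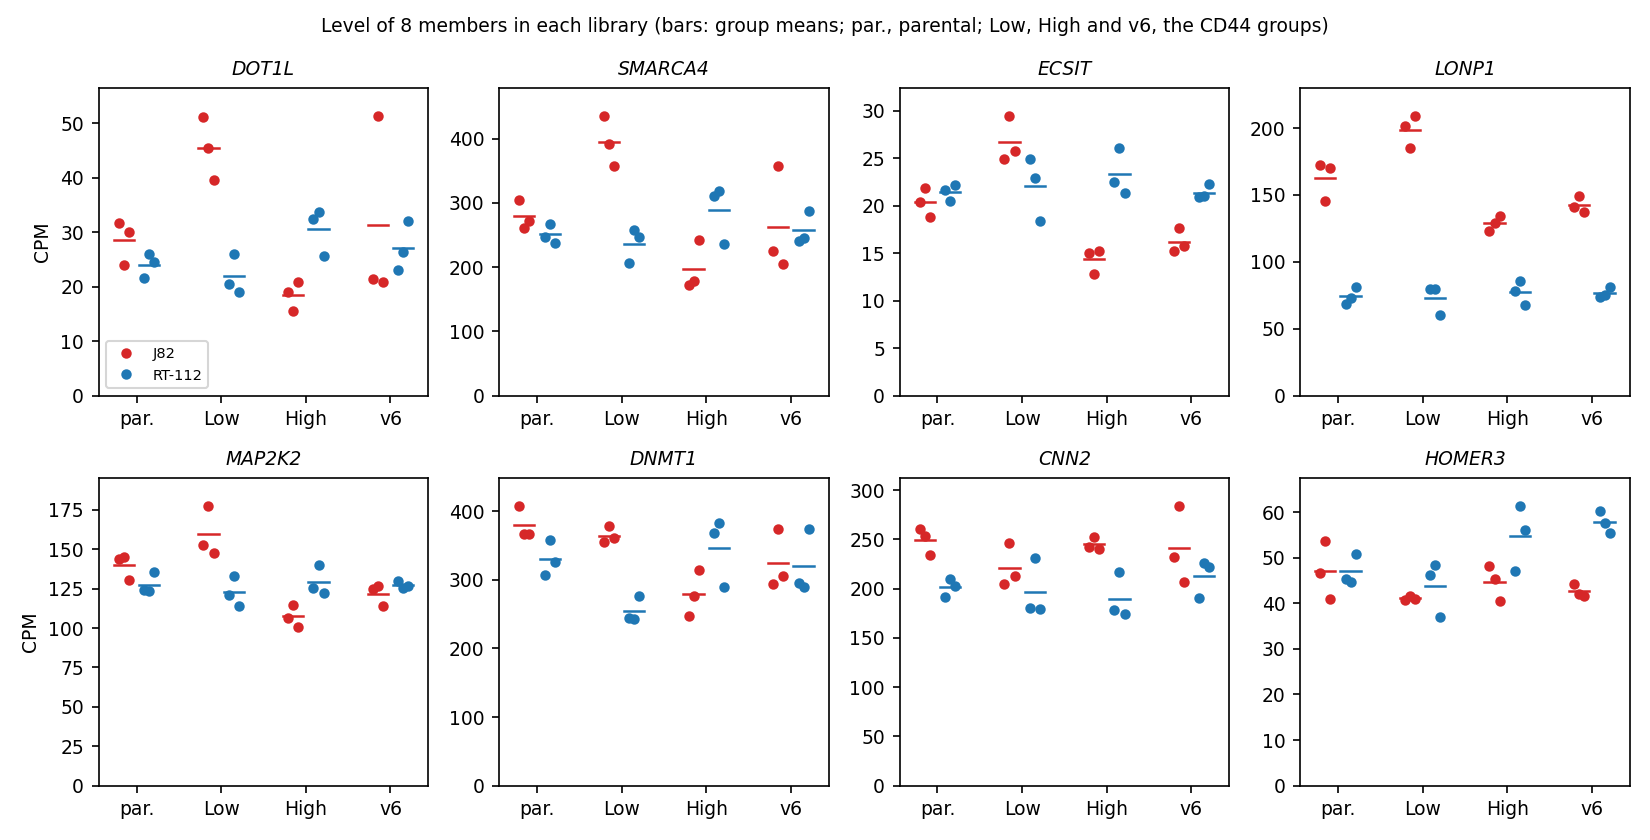
Levels in CPM of 8 genes of the set in each library by group, J82 in red and RT-112 in blue, with group means as bars and axes from 0. In J82 DOT1L, SMARCA4, ECSIT, LONP1 and MAP2K2 lie below CD44 Low in every CD44 High library, while CNN2 and HOMER3 overlap. For DOT1L and SMARCA4, J82 CD44v6 replicate 2 (51.5 and 357 CPM) stands above the other CD44v6 libraries.

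The library J82 CD44v6 replicate 2 stood above the other CD44v6 libraries for a number of these genes. Beside DOT1L, SMARCA4 and NFIC, this held for NFIX (52.4 CPM against 26.7 and 18.4), MYO9B (223 CPM against 142 and 125) and UPF1 (118 CPM against 80.1 and 58.8). Without it the median of CD44v6 against parental was -0.20, and that of CD44v6 against CD44 Low was -0.26. These genes have long transcripts: 8399 bases for NFIC, 7436 for DOT1L and 5791 for SMARCA4, against a median of 2582 over the set. Across the 54 genes, transcript length and the CD44v6 minus parental difference had a Spearman correlation of 0.515, and length and the CD44 High minus CD44 Low difference one of -0.363. Over the protein-coding genes off chromosome 19 these correlations had the same signs, 0.303 and -0.231. These are descriptions over genes of the same libraries. The same library had the highest CD44 level of its group (1076 CPM against 725 and 617) and the highest GC trend (the tenth of genes off chromosome 19 richest in GC minus the poorest, in log2 against parental), 0.33 against 0.06 and 0.07. The part of transcript length, CD44 level or GC trend in the shift was not tested.

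The set was also split by transcript length in J82. It was chosen for its J82 shift, so the counts below 0 in either part follow largely from the choice. The part of length was not tested. Among the 27 genes with transcripts up to 2582 bases, 25 were below 0 in CD44 High against CD44 Low (median -0.26), and among the 27 longer ones all 27 were (median -0.33). For protein-coding genes off chromosome 19 split at the same length, the medians were 0.13 and -0.02. For CD44v6 against parental the set's medians were -0.23 in the shorter and -0.06 in the longer genes, against -0.07 and 0.07 off chromosome 19.

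The set's transcripts had a median GC content of 60.3%, against 48.0% over all genes tested in J82. Off chromosome 19 the tenth of genes richest in GC had a median of 0.11 in CD44 High against CD44 Low, and the tenth poorest in GC had -0.09. After the median of genes of like GC content was subtracted, the set's median was -0.40 for CD44 High against CD44 Low and -0.29 against parental. For CD44v6 it was -0.31 against CD44 Low and -0.25 against parental. The part of GC content in the shift was not tested.

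Genes elsewhere in the genome that are related to these ones, as subunits of the same complex or as paralogs, were compared next. They were 86 genes, none on chromosome 19, for 38 members of the set. In J82 CD44 High against CD44 Low they had a median of 0.05 and were below 0 for 36 genes and above 0 for 50. Of the 38 genes of the set, 31 lay below the median of their own partners, and 35 of 38 did in CD44 High against parental. The set was chosen for its J82 shift and the partners lie off chromosome 19, so these counts follow largely from the choice. They are a description and no test.

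COPE, at -0.40, was the only COPI subunit below 0 among those compared: COPA, COPB1, COPB2, COPG1, ARCN1 and COPZ1 ran from 0.01 to 0.23. MAP2K2 (-0.57) had MAP2K1 at 0.00, TYK2 (-0.54) had JAK1 at 0.49, and SF3A2 (-0.72) had SF3A1 at -0.15 and SF3A3 at 0.24. UQCR11 (-0.29) had 6 of its 7 complex III partners above 0, UQCRH (-0.22) being the other. Some partners were as low as the set: POLR2A gave -1.03, GATAD2B -0.95, ARID1A -0.83 and NFIB -0.73. POLR2A lay below POLR2E, a subunit of the same polymerase, and GATAD2B lay below its paralog GATAD2A.

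RT-112 was used to ask whether the set shifted with the CD44 groups in a line not used to choose it. CD44 High against CD44 Low gave a median of 0.09, with 37 of 54 genes above 0, and 8 genes passed edgeR's quasi-likelihood test with Benjamini-Hochberg adjustment over all genes. Of these, 6 rose (11.1% of the set) and 2 fell (3.7%), against 9.01% and 7.02% of the 15645 genes tested (16% in either direction). The share called in the set, 14.8%, was near that background. After GC centring the median was -0.01.

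Of the 8 calls, 5 were among the 14 chromatin and transcription genes. As the share called in the set was near the background, no pattern by role is read from this. NFIC rose, from 4.98, 4.84 and 7.93 CPM in CD44 Low to 10.7, 10.7 and 7.82 CPM in CD44 High (log2 difference 0.72, SE 0.21, adjusted p = 0.0313). The groups overlapped, with CD44 High replicate 3 at the level of CD44 Low replicate 3. DNMT1 rose from 244, 242 and 276 CPM to 368, 383 and 290 CPM (0.45, SE 0.12, adjusted p = 0.0254), with no overlap. TCF3 rose by 0.35 (SE 0.11, adjusted p = 0.0461) with no overlap, and DOT1L by 0.48 (SE 0.15, adjusted p = 0.0498) with overlap. TLE5 fell from 184, 193 and 192 CPM to 126, 159 and 150 CPM (-0.39, SE 0.09, adjusted p = 0.0107).

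Outside that role, SF3A2 rose by 0.45 (SE 0.14, adjusted p = 0.0414) with overlap. COLGALT1 rose from 109, 108 and 114 CPM in CD44 Low to 143, 156 and 134 CPM in CD44 High (0.39, SE 0.08, adjusted p = 0.00691). PLIN3 fell from 55.0, 49.5 and 47.8 CPM to 35.9, 38.3 and 40.1 CPM (-0.41, SE 0.09, adjusted p = 0.00710). PLIN3 and COLGALT1 had no overlap between the groups.

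The RT-112 calls rested on particular libraries. CD44 High replicate 3 had a set median of -0.06, against 0.06 and 0.15 in the other replicates, and without it 15 genes were called. Leaving out CD44 High replicate 1, CD44 High replicate 2 or CD44 Low replicate 1 left 2, 3 and 3 calls, and leaving out CD44 Low replicates 2 or 3 left 4 and 5. NFIC, DNMT1, TCF3, DOT1L and SF3A2 were no longer called without CD44 Low replicate 1, CD44 High replicate 1 or CD44 High replicate 2. NFIC, DNMT1, TCF3 and SF3A2 were also lost without CD44 Low replicate 2, and TCF3, DOT1L and SF3A2 without CD44 Low replicate 3. TLE5 was lost without CD44 High replicate 1 (adjusted p = 0.0516 in edgeR's test). PLIN3 and COLGALT1 passed the test with any of these libraries left out. The GC trend ran from -0.17 to 0.59 over the RT-112 CD44 High libraries, and its part was not tested.

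CD44v6 against CD44 Low in RT-112 gave a median of 0.07, and 4 genes of the set (7.41%) were called, against 16% of all genes. Of these, 2 were higher (3.7%, against 7.97%) and 2 lower (3.7%, against 8.03%). COLGALT1 rose by 0.36 (adjusted p = 0.0113) and HOMER3 by 0.40 (adjusted p = 0.0389), while PLIN3 fell by 0.40 (adjusted p = 0.00957) and TLE5 by 0.38 (adjusted p = 0.0135). HOMER3 had 46.2, 48.4 and 37 CPM in CD44 Low and 60.2, 57.7 and 55.4 CPM in CD44v6, with no overlap. Without CD44v6 replicate 3, 1 gene was called, PLIN3. HOMER3 was also lost without CD44v6 replicate 1 or 2 and without CD44 Low replicate 1 or 3.

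Against parental RT-112 cells few genes of the set moved. CD44 Low gave a median of -0.03 and 1 call (1.85% of the set), against 3.2% of all genes. It was PLIN3, which rose from 38.8, 38.7 and 41.8 CPM by 0.35 (SE 0.09, adjusted p = 0.0443 in edgeR's test). That call was lost, with 0 genes called, when any of the 3 parental libraries or CD44 Low replicate 1 or 2 was left out. CD44 High gave a median of 0.05 and CD44v6 one of 0.02, with 0 calls in edgeR's quasi-likelihood test and in DESeq2, against 0.511% and 0.614% of all genes. At an unadjusted p under 0.05 in edgeR's test there was 1 of the 54 genes in each, against 12.3% and 15.3% of all genes. CD44v6 and CD44 High differed by a median of -0.03, with 0 calls by either tool, 0% of all genes called and 0 genes of the set at an unadjusted p under 0.05.

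Across the 54 genes the CD44 High minus CD44 Low differences of the lines were negatively correlated (Pearson's r -0.476, Spearman -0.336). Over the 14237 genes tested in both lines the Spearman correlation was 0.119. Other comparisons differed. Against parental, the set's Spearman correlation was -0.113 for CD44 High, 0.00 for CD44 Low and 0.459 for CD44v6. Over all genes tested in both lines it was 0.216, 0.23 and 0.202 in the same order. The J82 values also chose the set. In RT-112 the longer transcripts of the set lay higher (median 0.17) than the shorter ones (0.02), the reverse of J82. These are descriptions across genes, which are not independent replicates, and a difference between the lines was not tested.

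The parental lines were compared over all 24 libraries, using the J82 parental libraries that also enter the J82 comparisons above. J82 minus RT-112 had a median of -0.09 over the set. By edgeR's quasi-likelihood test 11 genes (20.4%) were higher and 19 (35.2%) lower in J82, against 31% of all genes in each direction. That makes 30 of 54 (55.6%), against 62% of 17438 genes tested. The other 409 genes of the stretch had a median of -0.19. The nuclear factor I genes NFIX (2.05, SE 0.31, adjusted p = 5.67e-06) and NFIC (1.80, SE 0.39, adjusted p = 0.00038) were higher in J82, as were LONP1 (1.12, SE 0.11, adjusted p = 1.42e-08), PLIN3 (0.93) and GATAD2A (0.92). PLPP2 (-1.37, SE 0.21, adjusted p = 4.83e-06) and CIRBP (-1.01, SE 0.10, adjusted p = 1.35e-08) were lower in J82. Of the 4 genes with the lowest CD44 High minus CD44 Low difference in J82, NFIC was thus higher in J82, while DOT1L (0.25, SE 0.25), SMARCA4 (0.15, SE 0.17) and ECSIT (-0.08, SE 0.12) did not pass the test.

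Some of these values may mix neighbouring genes. In GENCODE 29, 14 of the 55 genes share over 10% of their exon bases with other genes. Examples on the same strand are PIK3R2 (87.2%) and BABAM1 (32.6%), and on the opposite strand GADD45GIP1 (29.4%), SF3A2 (12.7%) and DOT1L (11.5%). Whether the counting used strand is not given in the sources used here, so reads from such pairs cannot be told apart.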

How the data were processed

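RNA of 24 libraries was sequenced. The authors deposited raw counts per gene symbol. The submitters' processing notes name HISAT2, StringTie and GRCh37 with no role or order, and strand use is not given in the sources used here. With edgeR 4.0.16 in R 4.3.3, each line was fitted separately over 12 libraries (terms: the 4 groups) by the quasi-likelihood method, after filterByExpr and TMM scaling. J82 kept 15951 genes and RT-112 15645. P-values were two-sided, Benjamini-Hochberg adjusted over all genes tested, and called under 0.05. Standard errors were the log2 difference divided by the square root of the F statistic. Library medians used log2 CPM with a prior count of 2. The parental lines were compared in a fit over all 24 libraries.

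The members, role groups and partner lists were chosen with earlier results of these data known. Any member could be named; fuller values went to those with the largest and smallest J82 CD44 High minus CD44 Low difference in each role, to those called in RT-112, and to others picked for their role after their values were seen. Symbols were matched to RefSeq on GRCh38.p14 (34744 of 35993). GENCODE 29 gave transcript length, GC content and overlaps, and promoters came from RefSeq.

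Replicates of a group differed by more than sampling noise (chi-square per degree of freedom 6.42 to 63.7 over 24 pairs). The labels do not say what the shared replicate numbers mark. Deviations of same-numbered libraries correlated over 0.1 in all 3 pairs in 1 of 12 comparisons, J82 CD44v6 against CD44 High (0.113, 0.109 and 0.252). Alternatives were other scalings, other filters, the DESeq2 1.42.0 Wald test, fits on 2 groups or on all libraries, a replicate block, GC centring, each library left out and, chosen after seeing the data, scaling without chromosome 19. The fit was tested on simulated data. Figures used Python 3.11.15 and matplotlib 3.10.9.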

Additional observations from a re-analysis of the deposited data

Results flagged for a closer look

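COLGALT1, the collagen galactosyltransferase, had opposite differences between CD44 High and CD44 Low in the 2 lines: -0.28 in J82 and 0.39 in RT-112, so that J82 minus RT-112 was -0.67. All 3 J82 CD44 High libraries lay below all 3 CD44 Low libraries, and in RT-112 all 3 lay above. Only the 16 named genes were searched for this pattern, so it is not particular to COLGALT1. DNMT1, BSG, DAZAP1 and LSM7, which were not searched, had it too. The difference between the lines was not tested.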

How the results depend on the processing

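The J82 medians over the set kept their sign in all 17 alternatives of each of the 6 comparisons. GC centring moved 4 of them by more than the spread between replicates: to -0.29 for CD44 High against parental, -0.25 for CD44v6 against parental, -0.40 for CD44 High against CD44 Low and -0.31 for CD44v6 against CD44 Low. With each library left out in turn, CD44 High against CD44 Low ran from -0.37 to -0.27, and both ends moved by more than that spread too. In this comparison 12 of the 17 alternatives stayed within the spread. In RT-112, where medians lay near 0, GC centring turned the medians of CD44v6 against CD44 Low from 0.07 to -0.0499, of CD44v6 against parental from 0.02 to -0.03 and of CD44 High against CD44 Low from 0.09 to -0.01.

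The RT-112 counts of called genes moved with the processing. CD44 High against CD44 Low, with 8 calls, gave 5 with upper-quartile scaling, without small structural RNAs, with all 24 libraries and with scaling without chromosome 19, 4 with no filter, 1 with only the 2 groups compared, and 2 to 15 with each library left out. CD44 Low against parental, with 1 call, gave 0 with no filter, 3 with only the 2 groups, and 0 to 2 with each library left out. CD44v6 against CD44 Low, with 4 calls, gave 1 to 5 with each library left out. The cause was not tested.

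With the replicate number as a block, CD44 High against CD44 Low in RT-112 gave 5 calls, CD44 Low against parental 0 and CD44v6 against CD44 Low 3; the samples share only a number there. Of 512 differences of 16 named genes under the alternatives, 477 counted as unchanged and 0 as reversed. In RT-112, unchanged meant keeping the side of the adjusted p threshold. In J82, where no test was made, it meant moving by no more than the spread between replicates. By that looser rule all 16 alternatives of each gene counted as unchanged in J82, also where RPL36 and PRDX2 changed sign. All the changes were thus in RT-112. GNG7, with 0 counts in 22 of 24 libraries, entered no comparison.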

Other observations

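Zinc finger genes, which cluster on chromosome 19 and are not in the set, lay lower than their neighbours in J82 CD44 High against CD44 Low. The 80 tested on the short arm had a median of -0.59, against -0.33 for the other 372 genes of that arm. The 170 on the long arm had one of -0.47, against -0.23 for the other 381 genes of the long arm. The 287 zinc finger genes off chromosome 19 had a median of -0.20. In RT-112 the zinc finger genes had medians of -0.14 on the short arm, -0.17 on the long arm and -0.10 off the chromosome. The other genes there had medians of 0.03 on the short arm and 0.05 on the long arm. These are descriptions, with no test of the difference between the groups of genes.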
